A study of Mus musculus with 13 samples.

Results

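Mmp13, Adamts5 and Sema3a, 3 genes of secreted proteins, were compared with a set of osteoblast genes, Col1a1, Col1a2, Sp7, Runx2, Ibsp, Alpl and Spp1, in mouse bone marrow after blood loss. The question was whether the first 3 moved apart from the osteoblast content of the marrow. All 10 genes were chosen by their levels at times after phlebotomy against control on these same arrays, so those differences are given as a description, with a standard error and no p-value. Probe sets annotated to exactly 1 of the 10 genes stood for them, and 8 of the 10 were measured, of 19938 genes in all. Each of the 8 had 1 probe set. Runx2 and Spp1 were not analysed here, which left 5 osteoblast genes.

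The samples were marrow from femurs of male C57BL/6 mice, 6 weeks old, on Affymetrix Mouse Gene 1.0 ST arrays, which read RNA with 1 colour. Phlebotomized mice lost 500 μL of blood from behind the eye. The groups were 3 baseline controls, 1 array at 4 h, 3 at 9 h, 2 at 12 h, 2 at 15 h and 2 at 48 h. No group carried an allele or agent beyond the bleeding, and the sources used here describe no sham puncture for the controls.

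The numbers in the sample titles fell into 2 runs, and 10 arrays belonged to the larger run. The smaller run held control replicate 3 and replicates 1 and 2 of 9 h, so only control and 9 h lay in both. The median gene had a log2 level of 7.3 to 7.4 in the larger run and 8.13 to 8.14 in the smaller, and 75.6% of genes repeated a value within the smaller run against at most 0.13% in any 3 arrays of the larger. Of the 8 genes Sp7 alone repeated a value there. Levels are therefore set against control only within a run. Arrays of the same group and run correlated at 0.993 to 0.999. Nothing in the labels says that replicates were separate mice, so standard errors and p-values cover the spread of these arrays only, part or all of which may be technical.

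Osteoblasts lay down bone matrix on the inner bone surfaces that border the marrow. Sp7 encodes osterix, the transcription factor that commits cells to this lineage. Col1a1 and Col1a2 encode the chains of type I collagen, Ibsp a bone matrix sialoprotein, and Alpl the alkaline phosphatase needed for mineral to form. Mmp13 encodes collagenase 3, which cuts fibrillar collagens and is made in bone by osteoblasts and osteocytes and in cartilage by hypertrophic chondrocytes. Adamts5 encodes an aggrecanase, which cuts the large proteoglycans of cartilage and other matrices. Sema3a encodes a secreted semaphorin that binds neuropilin 1 and plexin A receptors, guides axons, and in bone favours osteoblasts over osteoclasts. Osteoblasts are a small share of the cells in a marrow sample.

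Promoter sequence from RefSeq (build GRCm38.p6) was matched by symbol for 7 of the 10 genes, and Adamts5, Col1a1 and Sp7 had no entry. The 250 bases before the transcript start are shown for Mmp13 and Sema3a, which stood apart from the osteoblast genes, and for Ibsp and Col1a2 as osteoblast genes to set them against. They lie at chr9:7272264-7272513 for Mmp13, chr5:13396534-13396783 for Sema3a, chr5:104299037-104299286 for Ibsp and chr6:4505368-4505617 for Col1a2, all on the plus strand. The Sema3a window lies inside the gene, which spans chr5:13124822-13603485, and stands before an inner transcript start. The windows of Mmp13, Ibsp and Col1a2 end where the gene begins. Capitals mark matches on either strand to AACCACA, a core sequence that RUNX factors bind, TGACTCA, the AP-1 element, or TTCNNNGAA, the STAT element.
Mmp13: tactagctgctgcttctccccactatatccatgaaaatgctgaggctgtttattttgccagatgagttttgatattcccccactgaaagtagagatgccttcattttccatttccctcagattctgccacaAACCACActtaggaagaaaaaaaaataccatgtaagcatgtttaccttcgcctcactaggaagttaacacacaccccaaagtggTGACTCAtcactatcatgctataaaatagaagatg
Sema3a: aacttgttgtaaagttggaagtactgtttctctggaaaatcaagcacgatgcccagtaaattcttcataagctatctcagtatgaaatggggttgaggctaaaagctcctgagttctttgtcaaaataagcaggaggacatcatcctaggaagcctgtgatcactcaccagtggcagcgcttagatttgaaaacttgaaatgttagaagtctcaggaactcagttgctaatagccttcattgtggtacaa
Ibsp: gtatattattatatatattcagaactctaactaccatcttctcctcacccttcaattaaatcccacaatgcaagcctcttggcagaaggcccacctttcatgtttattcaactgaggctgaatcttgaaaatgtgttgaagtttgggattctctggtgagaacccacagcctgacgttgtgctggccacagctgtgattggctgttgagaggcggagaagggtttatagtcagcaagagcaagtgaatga
Col1a2: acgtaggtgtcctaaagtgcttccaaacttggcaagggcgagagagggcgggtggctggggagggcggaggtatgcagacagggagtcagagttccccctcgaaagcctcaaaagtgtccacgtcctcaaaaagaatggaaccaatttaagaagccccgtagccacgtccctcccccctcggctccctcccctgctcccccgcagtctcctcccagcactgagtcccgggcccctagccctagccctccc
Mmp13 held AACCACA from 119 to 113 bases before its start and TGACTCA from 35 to 29 bases before it. The windows of Sema3a, Ibsp and Col1a2 held none of the 3 motifs. For Sema3a this covers the inner start only, and the sequence before the first base of the gene was not read. AACCACA was not particular to Mmp13, since the windows of 2 osteoblast genes without values here held it too, Spp1 from 129 to 123 and Runx2 from 81 to 75 bases before the start. Of 32851 promoter windows of the same length, 4.4% held AACCACA, 4.46% held TGACTCA and 7.02% held TTCNNNGAA. No motif overlapped another in the Mmp13 window. These matches describe letters in a window and say nothing of binding in these samples.

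At 9, 12 and 15 h after phlebotomy, Mmp13, Adamts5 and Sema3a all lay above the controls of their run on every array, as 3.32% of all genes did, while the osteoblast genes lay on both sides of the controls. Averaged over these 3 times, the difference from control was 1.37 ± 0.19 (log2, SE) for Mmp13, 1.22 ± 0.12 for Sema3a and 0.76 ± 0.09 for Adamts5, that is 2.59-fold, 2.33-fold and 1.69-fold. The mean of the 5 osteoblast genes differed from control by −0.03 ± 0.29, and by −0.40 without control replicate 3 or 0.35 without control replicate 1. The middle times had 7 arrays and the controls 3. In bulk marrow, fewer cells of a type and less RNA per cell cannot be told apart.

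**Figure D1:**
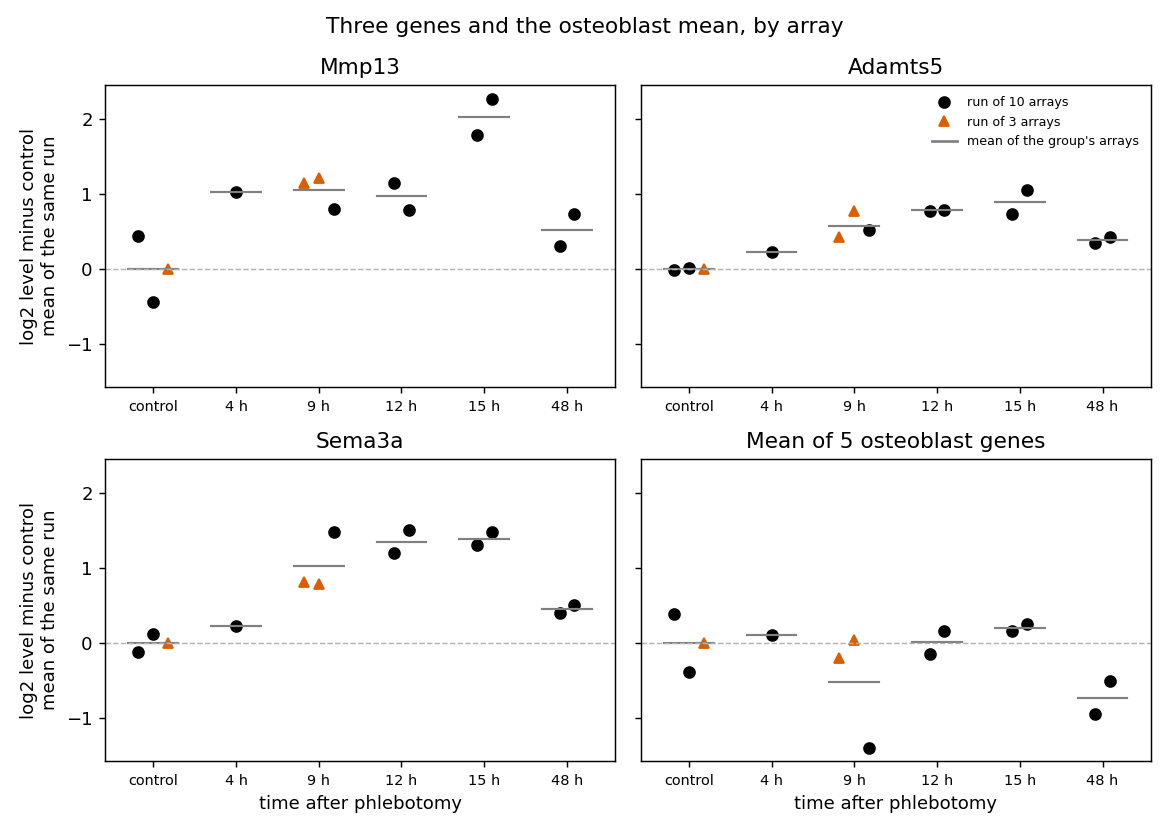
Each point is 1 array, with time after phlebotomy on the x axis and the log2 level minus the control mean of the same run on the y axis; grey lines are means of a group's arrays, circles the run of 10 arrays and triangles the run of 3. All 7 arrays of 9, 12 and 15 h sit above the controls for Mmp13, Adamts5 and Sema3a, while the mean of the 5 osteoblast genes is lowest on replicate 3 of 9 h, at −1.40.

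Mmp13, the collagenase, had log2 levels of 10.67 and 9.78 in the controls of the larger run, 11.26 at 4 h, 11.03 on the 9 h array, 11.37 and 11.02 at 12 h, 12.01 and 12.50 at 15 h, and 10.52 and 10.96 at 48 h. In the smaller run it was 11.07 in the control and 12.21 and 12.28 at 9 h. The arrays of 4, 9, 12 and 15 h all lay above the controls of their run, those of 15 h highest, and 1 of the 2 arrays of 48 h lay between the controls. The share of all genes with this order was not counted. The fitted difference was 1.10 ± 0.32 at 4 h, 0.99 ± 0.23 at 9 h, 1.03 ± 0.26 at 12 h, 2.09 ± 0.26 at 15 h and 0.58 ± 0.26 at 48 h. The value at 15 h is 4.27-fold over control. Of these 3 genes Mmp13 had the controls furthest apart, 0.44 above and 0.44 below their mean, and leaving one of them out gave a difference over the middle times of 1.14 (control replicate 2 out) or 1.69 (control replicate 1 out). At 48 h the same omissions gave 0.31 and 0.94.

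Adamts5, the aggrecanase, had log2 levels of 8.34 and 8.35 in the controls of the larger run, 8.57 at 4 h, 8.87 on the 9 h array, 9.12 and 9.14 at 12 h, 9.08 and 9.40 at 15 h, and 8.69 and 8.77 at 48 h. In the smaller run it was 9.16 in the control and 9.58 and 9.93 at 9 h. Every array after phlebotomy lay above the controls of its run, and the arrays of 48 h lay below those of 9, 12 and 15 h in the larger run. How many of all genes had this order was not counted, and nothing is read from it. The fitted difference was 0.24 ± 0.15 at 4 h, 0.56 ± 0.11 at 9 h, 0.80 ± 0.12 at 12 h, 0.91 ± 0.12 at 15 h and 0.40 ± 0.12 at 48 h. Its controls in the larger run lay closest together of the 3 genes.

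Sema3a, the semaphorin, had log2 levels of 7.25 and 7.50 in the controls of the larger run, 7.61 at 4 h, 8.85 on the 9 h array, 8.57 and 8.89 at 12 h, 8.68 and 8.85 at 15 h, and 7.77 and 7.88 at 48 h. In the smaller run it was 8.33 in the control and 9.15 and 9.12 at 9 h. In the larger run the 5 arrays of 9, 12 and 15 h formed a group of their own, above the arrays of 4 and 48 h, which lay just above the controls. The share of all genes in that order was not counted. The fitted difference was 0.12 ± 0.20 at 4 h, 1.14 ± 0.15 at 9 h, 1.24 ± 0.16 at 12 h, 1.28 ± 0.16 at 15 h and 0.34 ± 0.16 at 48 h. Without control replicate 1 the value was −0.05 at 4 h and 0.17 at 48 h, and without control replicate 3 the value at 4 h was 0.23. From the middle times to 48 h it differed by −0.88 ± 0.14, against −0.79 ± 0.22 for Mmp13 and −0.36 ± 0.10 for Adamts5.

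At 4 h the 3 genes differed among themselves, Mmp13 at 1.10, Adamts5 at 0.24 and Sema3a at 0.12 in log2 difference from control, on 1 array with no replicate. That array also carried transcripts of other tissues. Of 15 small intestine markers 12 rose there (median 4.12 over the 15, against −0.00 over all genes), including Reg3g, an antimicrobial lectin of the gut, at 12.32 against 7.61 and 7.54 in the controls. Skeletal muscle markers, 12 in number, had a median of 1.67, all above 0 and none past the threshold in the limma fit, 6 of them at an unadjusted p under 0.05. Their part in the Mmp13 value was not tested.

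The osteoblast genes went together from array to array and differed between arrays of 1 group. Sp7, the lineage factor, had log2 levels of 9.67 and 8.48 in the controls of the larger run, 9.01 at 4 h, 7.28 on the 9 h array, 8.82 and 9.29 at 12 h, 9.22 and 9.27 at 15 h, and 7.86 and 8.44 at 48 h. In the smaller run Sp7 was 9.49 in the control and 9.23 and 9.49 at 9 h. The arrays of 4, 12 and 15 h lay between the controls of the larger run. The lowest was replicate 3 of 9 h, followed by the arrays of 48 h.

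The collagens repeated that order. Col1a1 had log2 levels of 13.64 and 13.04 in the controls of the larger run, 13.46 at 4 h, 11.99 on the 9 h array, 12.99 and 13.33 at 12 h, 13.50 and 13.47 at 15 h, and 12.33 and 12.78 at 48 h, with 13.87 in the control and 13.68 and 13.85 at 9 h in the smaller run. Col1a2 had 13.34 and 12.50 in the controls of the larger run, 13.15 at 4 h, 11.41 on the 9 h array, 12.66 and 12.998 at 12 h, 13.18 and 13.05 at 15 h, and 11.74 and 12.31 at 48 h, with 13.46 in the control and 13.29 and 13.46 at 9 h in the smaller run. Both arrays of 48 h and the 9 h array of the larger run lay below the controls for Col1a1 and Col1a2, and for Col1a1 so did 1 array of 12 h.

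Ibsp, the sialoprotein, had log2 levels of 11.68 and 11.08 in the controls of the larger run, 11.66 at 4 h, 10.55 on the 9 h array, 11.42 and 11.47 at 12 h, 11.60 and 11.68 at 15 h, and 10.82 and 10.84 at 48 h, with 11.95 in the control and 11.96 and 12.08 at 9 h in the smaller run. Alpl, the phosphatase, had 10.86 and 10.20 in the controls of the larger run, 10.48 at 4 h, 9.02 on the 9 h array, 10.63 and 10.96 at 12 h, 10.53 and 11.06 at 15 h, and 9.76 and 10.31 at 48 h, with 11.15 in the control and 10.80 and 11.28 at 9 h in the smaller run. Alpl was the only 1 of the 5 with an array of 48 h between the controls.

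**Figure D2:**
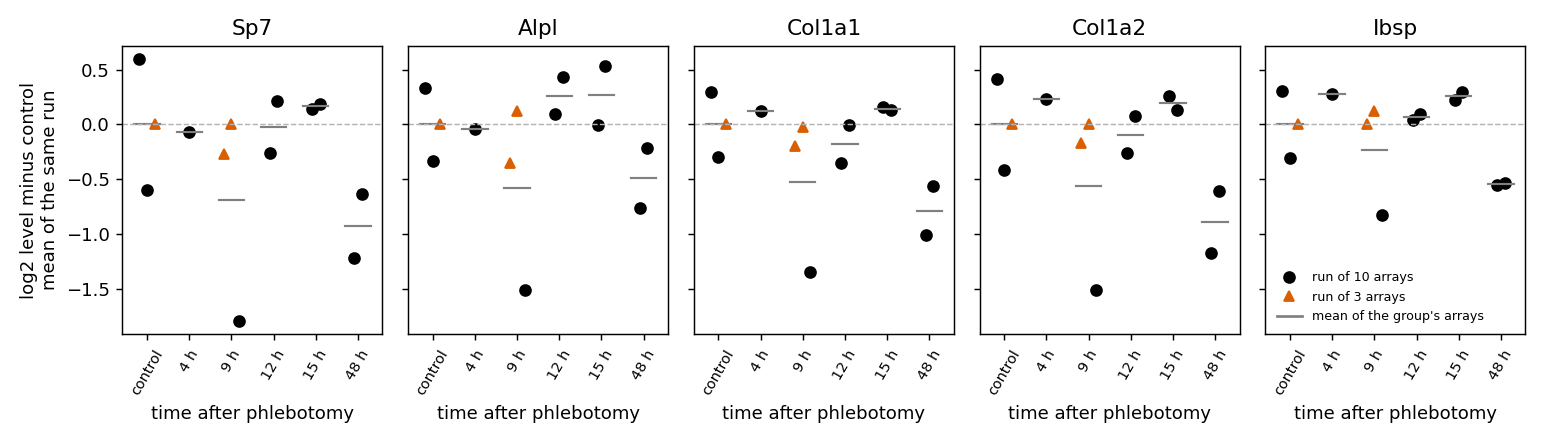
The 5 osteoblast genes, 1 panel each, with time after phlebotomy on the x axis and the log2 level minus the control mean of the same run on the y axis; points, lines and symbols are as for the plot of the 3 genes. In every panel the lowest point is replicate 3 of 9 h, from −0.83 for Ibsp to −1.80 for Sp7, and the 2 arrays of 9 h in the smaller run lie much nearer their control.

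Averaged over the 5 genes, the osteoblast level set against the control mean of the run was 0.39 and −0.39 in the controls of the larger run, 0.10 at 4 h, −1.40 on the 9 h array, −0.15 and 0.16 at 12 h, 0.15 and 0.26 at 15 h, and −0.95 and −0.51 at 48 h. In the smaller run it was −0.20 and 0.05 at 9 h. The fitted difference was 0.32 ± 0.50 at 4 h, −0.74 ± 0.36 at 9 h, 0.23 ± 0.40 at 12 h, 0.43 ± 0.40 at 15 h and −0.51 ± 0.40 at 48 h. Without replicate 3 of 9 h the 9 h value was −0.07, and the low mean at 9 h rests on that array. Without control replicate 1 the fitted 48 h value was −0.07, that at 4 h 0.76, that at 12 h 0.66 and that at 15 h 0.86. The size of the fitted 48 h value thus depends on that control. Both arrays of 48 h nonetheless lay below both controls of the larger run. Without replicate 3 of 9 h, which also enters the run term, the fitted 48 h value was −0.73. Because the fit is shared, the run term also uses the smaller run's control and 9 h arrays. Within the larger run the plain differences were 0.10 at 4 h, −1.40 at 9 h, 0.01 at 12 h, 0.21 at 15 h and −0.73 at 48 h. The fitted values lie 0.22 above these, and 0.66 above at 9 h, which makes up nearly all of the fitted value at 12 h.

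Single osteoblast genes gave the same picture in the fit. Over the middle times the difference from control was −0.12 ± 0.21 for Col1a1, −0.07 ± 0.25 for Col1a2, −0.09 ± 0.30 for Sp7, 0.08 ± 0.15 for Ibsp and 0.06 ± 0.25 for Alpl. At 48 h it was −0.58 ± 0.28 for Col1a1, −0.65 ± 0.34 for Col1a2, −0.65 ± 0.41 for Sp7, −0.40 ± 0.21 for Ibsp and −0.26 ± 0.35 for Alpl. Each of the 5 values over the middle times is smaller than its standard error.

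A further 22 osteoblast genes that are not among the 8, of 26 listed, gave a second reading of osteoblast content. In the limma fit 0 of the 22 passed an adjusted p of 0.05 in any of the 7 comparisons, and at an unadjusted p under 0.05 there were 10 at 9 h, 1 at 15 h, 4 at 48 h against the middle times and 0 in the other 4. Over all genes an unadjusted p under 0.05 was reached by 15.2% at 4 h, 6.12% at 9 h, 13.7% at 12 h, 12.5% at 15 h, 14% at 48 h, 12% over the middle times and 15.8% at 48 h against the middle times. The unadjusted counts of this and the other lists are to be read against these shares, and the 4 of 22 lie near theirs. All 22 had a value above 0 at 4 h and at 15 h and below 0 at 9 h and at 48 h. These signs are not 22 separate readings, since the genes went together from array to array. The low 9 h values came from 1 array: the mean of the 22 against control was −1.14 on the 9 h array of the larger run and 0.02 at 9 h in the smaller. Their median was 0.11 over the middle times and −0.34 at 48 h, against −0.00 and 0.01 over all genes. Sparc, a collagen-binding matrix protein, had −0.06 ± 0.17 over the middle times, and Postn, periostin of the bone surface, 0.25 ± 0.32. Per array the mean of the 22 followed that of the 5 (Pearson r = 0.990, Spearman rho = 0.976 over the 10 arrays of the larger run, a description of arrays that share a run).

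Subtracting the osteoblast mean from each of the 3 genes on the same array gave a gap, set to 0 at the control mean of the run. For Mmp13 the gap was 0.06 and −0.06 in the controls, 0.93 at 4 h, 1.34, 1.17 and 2.21 at 9 h, 1.29 and 0.63 at 12 h, 1.63 and 2.02 at 15 h, and 1.25 and 1.25 at 48 h. All 10 arrays after phlebotomy lay above the controls. On replicate 3 of 9 h and at 48 h the low osteoblast mean by itself raises the gap. The share of all genes with such a gap was not counted. The Mmp13 controls of the larger run lay 0.44 to either side of their mean in level and 0.06 in the gap.

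For Adamts5 the gap was −0.40 and 0.40 in the controls of the larger run, 0.13 at 4 h, 0.62, 0.73 and 1.93 at 9 h, 0.92 and 0.63 at 12 h, 0.58 and 0.80 at 15 h, and 1.30 and 0.93 at 48 h. For Sema3a it was −0.51 and 0.51 in those controls, 0.13 at 4 h, 1.02, 0.75 and 2.88 at 9 h, 1.34 and 1.35 at 12 h, 1.15 and 1.22 at 15 h, and 1.34 and 1.02 at 48 h. The arrays of 9, 12, 15 and 48 h lay above all controls for both, and the 4 h array lay between the controls. As for Mmp13, the share of all genes with such a gap was not counted. On replicate 3 of 9 h and at 48 h a gene that did not move would lie above the controls too, since the osteoblast mean was low there. Those arrays therefore cannot show by their gap that a gene moved. Subtraction moved the Adamts5 and Sema3a controls apart, since the levels of these 2 genes did not follow the osteoblast genes there.

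**Figure D3:**
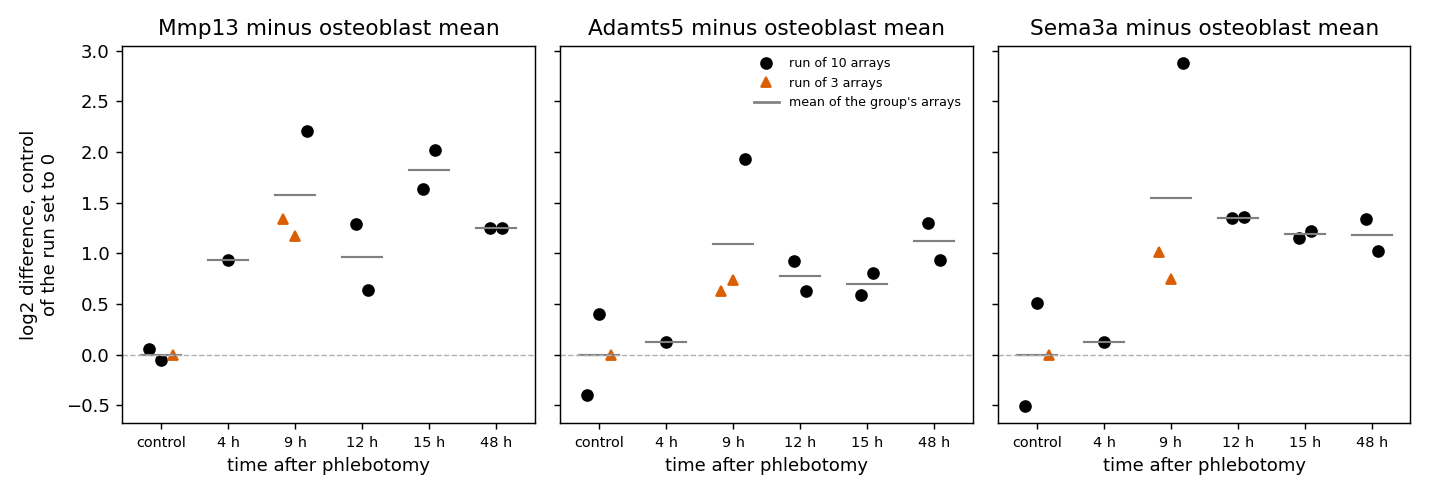
Each point is 1 array, with time after phlebotomy on the x axis and, on the y axis, the log2 level of the named gene minus the mean of the 5 osteoblast genes, with the control mean of the run set to 0. Arrays of 9, 12, 15 and 48 h lie above every control in all 3 panels, the highest being replicate 3 of 9 h, with 2.21 for Mmp13, 1.93 for Adamts5 and 2.88 for Sema3a. The low osteoblast mean on that array and at 48 h raises the gap there.

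Fitted over the arrays, the gap over the middle times was 1.40 ± 0.22 for Mmp13, 0.78 ± 0.28 for Adamts5 and 1.25 ± 0.40 for Sema3a. At 48 h it was 1.09 ± 0.31, 0.91 ± 0.38 and 0.85 ± 0.54. The 48 h gaps include the low osteoblast level of those arrays, since the 3 genes themselves were 0.58, 0.40 and 0.34 above control there. Leaving out control replicate 1, the control with more osteoblast RNA, lowered the 48 h gap to 0.48 for Adamts5 and 0.25 for Sema3a, and the gap over the middle times to 0.41 and 0.73. For Mmp13 the lowest gap over the middle times under 25 alternatives was 1.27.

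With the osteoblast mean as a covariate in the fit, the differences over the middle times were 1.39 ± 0.15 for Mmp13, 0.76 ± 0.09 for Adamts5 and 1.22 ± 0.10 for Sema3a, against 1.37, 0.76 and 1.22 without it. The osteoblast mean itself differed from control by only −0.03 ± 0.29 over these times. The covariate could therefore hardly change these differences, whatever the slope, and nothing is read from their likeness. The fit held group and run as additive terms. There 1 log2 unit of osteoblast level went with 0.55 ± 0.20 of Mmp13, 0.10 ± 0.12 of Adamts5 and −0.29 ± 0.14 of Sema3a. These slopes are not purely within groups and runs, since they also draw on the unlike 9 h differences of the larger and smaller run. Those were −1.40 and −0.07 for the osteoblast mean, 0.81 and 1.18 for Mmp13 and 1.48 and 0.81 for Sema3a. Replicate 3 of 9 h therefore weighs on the slopes. The same slope was 1.35 ± 0.08 for Sp7, 1.08 ± 0.09 for Col1a2, 1.07 ± 0.13 for Alpl, 0.89 ± 0.08 for Col1a1 and 0.62 ± 0.10 for Ibsp, which are part of the mean and so must follow it. At 48 h the covariate changed the Mmp13 difference from 0.58 to 0.86 ± 0.23 and the Sema3a difference from 0.34 to 0.19 ± 0.15. Both changes depend on the slopes of these genes, and so in part on replicate 3 of 9 h. With the other 22 osteoblast genes as the covariate the differences over the middle times were 1.31 ± 0.13, 0.75 ± 0.09 and 1.26 ± 0.10. The mean of these 22 differed from control by 0.10 ± 0.28 over those times, so the same limit holds.

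**Figure D4:**
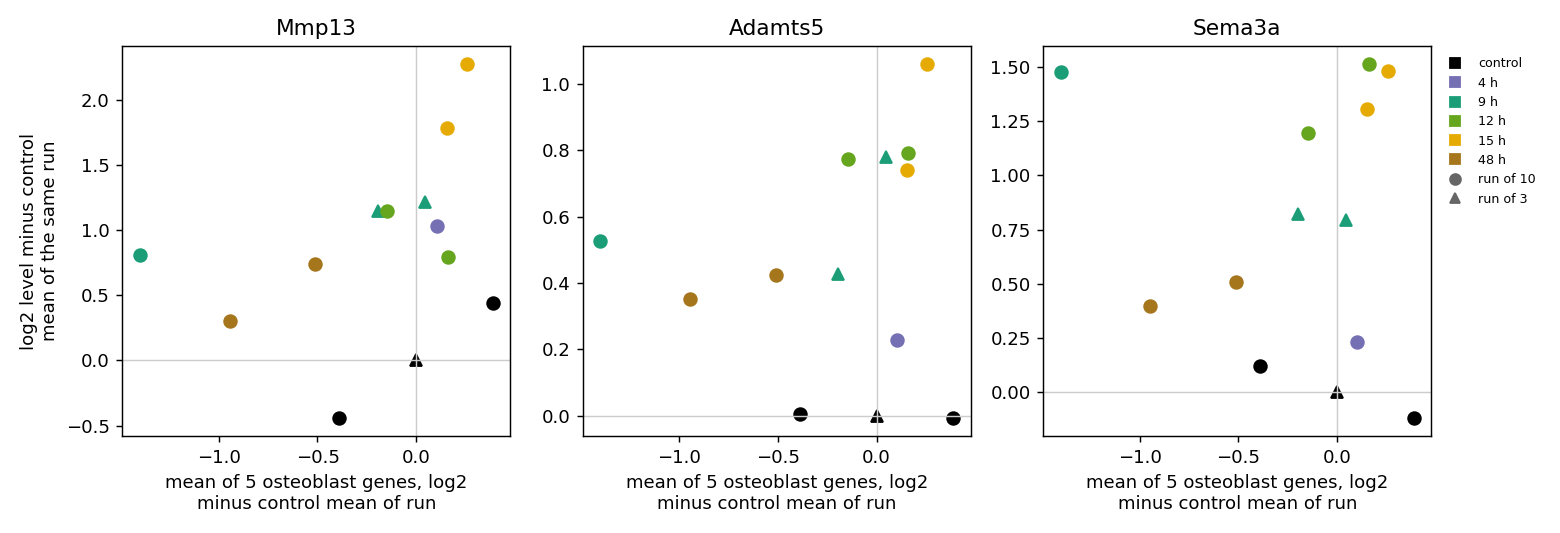
Each point is 1 array, with the mean of the 5 osteoblast genes on the x axis and the named gene on the y axis, both as log2 level minus the control mean of the run; the y scale differs between panels, colours give the time and symbols the run. Replicate 3 of 9 h lies at −1.40 on the x axis and yet at 0.81 for Mmp13, 0.53 for Adamts5 and 1.48 for Sema3a.

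Across the 10 arrays of the larger run, which share the time groups, Adamts5 and Sema3a had a Pearson r of 0.914 (rho = 0.939), Mmp13 and Adamts5 0.816 (rho = 0.721), and Mmp13 and Sema3a 0.658 (rho = 0.612). With the osteoblast mean, r was 0.392 for Mmp13, 0.147 for Adamts5 and −0.069 for Sema3a. Among the 5 osteoblast genes r ran from 0.875, for Ibsp and Alpl, to 0.995, for Col1a1 and Col1a2.

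The 9 h contrast was the 1 that both runs held. For Mmp13 the 9 h difference was 0.81 in the larger run and 1.18 in the smaller, for Adamts5 0.53 and 0.60, and for Sema3a 1.48 and 0.81. For the osteoblast mean it was −1.40 and −0.07. The 3 genes thus lay above control in both runs, whereas the osteoblast mean was low in the larger run, on 1 array. With 1 array of 9 h in the larger run and 1 control in the smaller, an interaction of run and 9 h was past the threshold for 0 of 19938 genes in limma (1215 at an unadjusted p under 0.05), so nothing on a difference between the runs is read from it.

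The share of all genes called gives the background for these genes. At 4 h and at 48 h limma called 0 of the 8. At 4 h, of all genes, 1.74% were called higher and 0.251% lower, and at 48 h 0.326% and 0.0502%. At 9 h 1 of the 8 was called higher, Sema3a (all genes 0.0502% higher, 0.0451% lower). At 12 h 2 were, Adamts5 and Sema3a (0.0853% and 0.0201%). At 15 h all of the first 3 were (0.211% and 0.0451%), as they were over the middle times (0.652% and 0.135%). From the middle times to 48 h Sema3a was called lower (0.883% of genes higher and 0.0953% lower). No osteoblast gene of the 5 was called in any comparison. Since the genes, their middle-time arrays included, were chosen on these contrasts, nothing is read from their counts.

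Relatives of the 3 genes, which the choice did not use, were tested in the same fit. Of 21 other matrix metalloproteases 0 passed over the middle times (1 at an unadjusted p under 0.05), with a median of −0.05 and a range from −0.12 to 0.26. Mmp7, matrilysin, rose at 4 h by 0.73 ± 0.09 (limma adjusted p = 0.000538), on the array with intestinal transcripts, whose part in it was not tested. Mmp9, gelatinase B of neutrophils and osteoclasts, had −0.05 ± 0.09 over the middle times, and Mmp14, a membrane-bound collagenase, 0.26 ± 0.17. Of the 4 TIMP genes, whose proteins inhibit these proteases, 0 passed in any of the 7 comparisons (1 at an unadjusted p under 0.05 over the middle times).

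Of 17 other ADAMTS proteases 2 rose over the middle times and 0 fell, both of them aggrecanases like Adamts5. Adamts1 had log2 levels of 6.77 and 6.61 in the controls of the larger run, 7.17 on the 9 h array, 7.09 and 7.26 at 12 h, and 7.15 and 7.40 at 15 h, with 7.65 in the control and 8.12 and 8.19 at 9 h in the smaller run. All middle arrays lay above the controls, as for 3.32% of all genes, and the difference was 0.53 ± 0.08 (limma adjusted p = 0.0122). Adamts4 had 6.69 and 6.66 in those controls, 6.92 on the 9 h array, 6.78 and 6.92 at 12 h, and 7.25 and 7.36 at 15 h, with 7.56, 7.92 and 7.90 in the smaller run. It rose by 0.38 ± 0.06 over the middle times (limma adjusted p = 0.0146) and by 0.65 ± 0.08 at 15 h (limma adjusted p = 0.0109).

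Both calls over the middle times were lost without control replicate 2 (limma adjusted p = 0.124 for Adamts1 and 0.103 for Adamts4), and that of Adamts4 also without control replicate 3 (adjusted p = 0.0519). Without that same control 2 the Adamts4 call at 15 h was lost too (adjusted p = 0.0617), as it was without either array of 15 h (0.0503 and 0.147). Array weights or the larger run alone ended both calls over the middle times too (limma adjusted p from 0.0638 to 0.141), as did leaving out the run term. The median of the 17 over the middle times was −0.01.

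Of the 6 other class 3 semaphorins 0 passed in any of the 7 comparisons, and over the middle times none was under an unadjusted p of 0.05. They ranged from −0.10 to 0.11 there, with a median of 0.01. Of 7 genes for receptors of semaphorin 3A 0 passed as well, and 0 were under an unadjusted p of 0.05 over the middle times. Nrp1, the neuropilin that binds it, had −0.03 ± 0.07, and Plxna1 and Plxna2, which signal with it, 0.00 ± 0.08 and −0.05 ± 0.18.

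**Figure D5:**
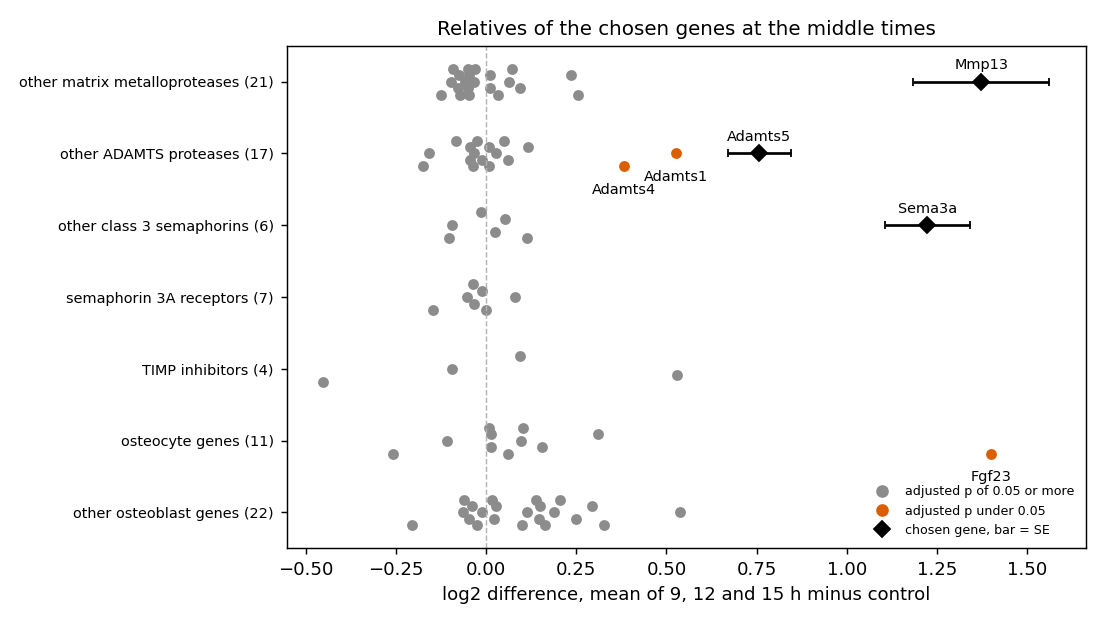
Log2 difference between the mean of 9, 12 and 15 h and control on the x axis, 1 dot per gene, in rows by gene list with the number measured; black diamonds are the chosen genes with their SE, and dots carry no error bars. Adamts1, Adamts4 and Fgf23 are the dots past an adjusted p of 0.05, and the other matrix metalloproteases lie between −0.12 and 0.26, below Mmp13 at 1.37.

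Among 11 osteocyte genes, markers of the cells buried in bone, Fgf23 rose over the middle times by 1.40 ± 0.19 (limma adjusted p = 0.00801) and no other passed. Fgf23 encodes a hormone that lowers blood phosphate and is made mainly in bone. Its log2 levels were 7.48 and 6.98 in the controls of the larger run, 8.78 at 4 h, 9.18 on the 9 h array, 8.06 and 8.60 at 12 h, 8.97 and 8.78 at 15 h, and 9.05 and 8.28 at 48 h, with 8.35 in the control and 9.65 and 9.78 at 9 h in the smaller run. Every array after phlebotomy lay above the controls of its run, and the share of all genes that did so was not counted.

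Fgf23 also passed at 4 h (1.45 ± 0.32, limma adjusted p = 0.0465), 9 h (1.66 ± 0.23, adjusted p = 0.0316) and 15 h (1.55 ± 0.26, adjusted p = 0.0441), and had 1.00 ± 0.26 at 12 h and 1.34 ± 0.26 at 48 h. Its call over the middle times was lost without control replicate 2 (1.19, limma adjusted p = 0.0884) and with array weights (adjusted p = 0.0646), and held without each other array. The calls at 4, 9 and 15 h were lost without 9, 7 and 7 single arrays in turn. Its level on replicate 3 of 9 h, the array lowest in osteoblast genes, was 1.95 above the controls. Dmp1, a matrix protein of osteocytes, had 0.31 ± 0.15 over the middle times, and Sost, the gene of sclerostin, −0.11 ± 0.05. The median of the 11 was 0.06 over the middle times. At 15 h Dmp1 had 1.08 ± 0.20 (limma adjusted p = 0.0732), against −0.41 ± 0.18 at 9 h and 0.93 on the 4 h array. Of the 11 osteocyte genes 9 had a value above 0 at 15 h, with a median of 0.44. At an unadjusted p under 0.05 there were 3, against 12.5% of all genes. The part of osteocyte content in the Mmp13 value was not tested.

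Regulators that act on Mmp13 in bone were read from their own lists. Of 7 AP-1 genes 0 passed in any of the 7 comparisons, with 0 under an unadjusted p of 0.05 over the middle times, where their range was −0.10 to 0.05. Fos had 0.01 ± 0.06 and Jun 0.01 ± 0.07. Of 11 genes that respond to parathyroid hormone and cyclic AMP 0 passed either, with 0 at an unadjusted p under 0.05 over the middle times and a range from −0.13 to 0.24. Tnfsf11, the RANKL gene of osteoclast formation, had 0.10 ± 0.05.

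Markers of other cells of marrow and bone were read in the same way. Of 13 chondrocyte genes 0 passed over the middle times (4 at an unadjusted p under 0.05; median 0.08). Col2a1, the collagen of cartilage, lay from 7.97 to 8.91 in the larger run, highest in a control, and Acan, aggrecan, from 6.12 to 6.80, highest at 15 h.

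At 15 h, where Mmp13 was highest, 11 of the 13 chondrocyte genes had a value above 0 and 0 passed. Of the 13, 6 had an unadjusted p under 0.05 there, against 12.5% of all genes, and the median was 0.16. Among these 6, Cytl1 lay below control, at −0.30 ± 0.08, and the others above it. Col10a1, the collagen of hypertrophic chondrocytes, had log2 levels of 7.18 and 7.58 in the controls of the larger run, 7.21 at 4 h, 7.52 on the 9 h array, 8.08 and 8.47 at 12 h, 8.48 and 8.68 at 15 h, and 7.79 and 7.59 at 48 h, with 8.03 in the control and 7.71 and 9.70 at 9 h in the smaller run. The arrays of 12 and 15 h lay above the controls, and those of 9 h on both sides of them. Col10a1 differed from control by 0.89 ± 0.33 over the middle times (limma adjusted p = 0.309) and by 1.28 ± 0.45 at 15 h (adjusted p = 0.291).

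Hapln1, the link protein that ties aggrecan to hyaluronan, had 1.24 ± 0.42 at 15 h, and Chad, chondroadherin, 0.52 ± 0.12. The mean of the 13 chondrocyte genes was 0.40 above control on replicate 1 of 15 h and 0.16 on replicate 2, the array with more Mmp13. The part of chondrocyte content in the Mmp13 value was not tested. Of 17 genes of stromal reticular cells 0 passed over the middle times (2 unadjusted; median −0.02), and Cxcl12, the chemokine of these cells, had −0.06 ± 0.10. Of 10 endothelial genes 0 passed (0 unadjusted; median 0.02).

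Of 12 osteoclast genes 0 passed over the middle times (0 unadjusted; median 0.12), and at 15 h 0 passed with 6 at an unadjusted p under 0.05, against 12.5% of all genes, and a median of 0.43. The mean of the 12 osteoclast genes was 0.92 above control on replicate 2 of 15 h and 0.17 on replicate 1, and replicate 2 was also the array with the highest Mmp13, 12.50 against 12.01. Ctsk, the osteoclast collagenase cathepsin K, was 11.97 and 10.72 on those arrays against 10.79 and 9.18 in the controls. The part of osteoclast content in the Mmp13 value at 15 h was not tested.

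Transcripts of other organs also moved with 48 h, with the controls and on single arrays of 9 h. Of 12 liver markers 6 rose at 48 h, with Alb, albumin, at 11.69 and 11.44 against 6.87 and 7.23 in the controls. On replicate 1 of 9 h Alb was 9.68 against 7.74 in the control of its run, and on the other middle arrays it lay below the control mean. The skeletal muscle mean against control was 0.68 on replicate 3 of 9 h, −1.36 on replicate 1 and −0.50 on replicate 2. Of 15 small intestine markers 7 fell over the middle times, Reg3g at −1.97 ± 0.07 in log2 difference (limma adjusted p = 4.7e-07), so the controls held more of them than the middle arrays. The mean log2 level of the 15 on the middle arrays, set against the control mean of the run, was −0.55 to −0.73. The part of these organ transcripts in the differences of the 8 genes was not tested.

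Genes most like each member across the 10 arrays of the larger run were found by Pearson r among 19930 others. For Mmp13 they were 4933402N03Rik (0.962), Lyplal1 (0.939), Ppp4r4 (0.916), Hccs (0.915) and Tmem97 (0.914). Lyplal1 ranged from 6.84 to 7.28 in log2 level over those arrays, and Mmp13 from 9.78 to 12.50. For Adamts5 they were Msmo1 (0.984), Ranbp1 (0.976), Ctps (0.962), Exosc1 (0.951) and Ccdc127 (0.949). For Sema3a they were Ankrd36 (0.978), Thg1l (0.963), Erfe (0.950), Noa1 (0.943) and Msl3 (0.942).

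Erfe, which encodes the erythroid hormone erythroferrone, ranged from 7.26 to 9.25 over those arrays, and Sema3a from 7.25 to 8.89. For the osteoblast mean the most alike were Rcn3 (0.995), Col5a2 (0.993), Ptpn13 (0.992), Jam2 (0.992) and Mmp2 (0.992), and Col5a2, a fibrillar collagen chain, was on the list of other osteoblast genes. None of the genes most like Mmp13, Adamts5 or Sema3a was among the 22 other osteoblast genes. With 5 genes taken for each from 19930, none of those 22 was likely to appear in any case. Nothing on osteoblast content is read from it. These are correlations over arrays that share a run and the time groups, and are given as a description.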

How the data were processed

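RNA of 13 marrow samples was measured on 1 array each. The deposited values are log2 levels per probe set, and the submitters' processing notes name RMA as the authors' method; its version and the arrays it normalized together are not given in the sources used here. Of 35557 probe sets 21789 have exactly 1 gene by the platform annotation; a gene with several was read from the one of highest mean level, and 19938 genes remained.

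limma 3.58.1 in R 4.3.3 fitted 1 model to all arrays, 6 groups plus the run of title numbers as a fixed term (6 residual and 4.62 prior degrees of freedom), and p-values were adjusted by Benjamini-Hochberg over all genes at a threshold of 0.05. The fit gives the single 4 h array the spread of the other groups. The fit was run on data simulated from its own model with independent normal errors. That check could not show how the repeated values of the smaller run affect it. The osteoblast mean was planned over 7 genes and taken over the 5 measured. Groups come from the labelled time. The members and lists were chosen with earlier results of these data known, and no gene set was tested.

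Named were the members, of each list up to 4 called genes (smallest p first), defining markers, and the 5 genes most like each of the first 3 and the osteoblast mean. Other genes named from the lists were chosen after their values were seen. Alternatives changed the run term, normalization, filter, variance model, array weights, probe set rule and osteoblast summary, and left out each array in turn. Python 3.11.15 and matplotlib 3.10.9 made the figures. The number of arrays limits the precision.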

Additional observations from a re-analysis of the deposited data

Results flagged for a closer look

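Sema3a differed between 48 h and the middle times by −0.88 ± 0.14 on the log2 scale, with both arrays of 48 h below all 5 middle arrays of the larger run; its middle arrays also chose the gene, so no p is read from it. The same contrast was past the threshold in limma for 9 of 12 liver and 2 of 15 small intestine markers, among them Apoa1 at 2.06, Fabp1 at 2.22, Apoc3 at 1.19, Ttr at 1.46, Cyp2e1 at 1.81 and Ahsg at 2.26, with adjusted p from 2.87e-05 (Ttr) to 0.00278 (Fabp1). All of these 6 were higher on both arrays of 48 h, the time at which the osteoblast mean was −0.95 and −0.51 against the controls. Whether transcripts of other organs bear on the 48 h values of the 8 genes was not tested.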

How the results depend on the processing

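Differences of the 8 genes moved by less than 1 residual SD in 1227 of 1309 recomputations and gaps in 502 of 522, and no value that had been called changed sign. Part of these recomputations could not move a value, so the shares are no measure of stability. The variance model and the filter leave a difference as it is, and each of the 8 genes had 1 probe set. Leaving out an array of a time found only in the larger run changes no difference that does not use that time. Some uncalled values near 0 did, among them Adamts5 and Sema3a at 4 h without the run term. The gap at 48 h ran from 0.48 to 1.12 for Adamts5 and from 0.25 to 1.18 for Sema3a when single arrays were left out, both lowest without control replicate 1. Calls of named genes held in 760 of 860.

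Counts over all genes depended on the setting; they are given in the order 4 h, 9 h, 12 h, 15 h, 48 h, middle times, and 48 h against middle times. They were 397, 19, 21, 51, 75, 157 and 195 as reported, 78, 6, 5, 5, 11, 8 and 13 with no run term, and 1852, 9, 4, 6, 14, 24 and 48 with array weights. With the run as a random block the last 6 were 32, 112, 81, 143, 252 and 335. With the larger run alone the last 5 were 10, 22, 31, 60 and 57. Without genes below the median mean level 4 h had 39, 12 h 59, 48 h 17 and the middle times 259. With trend and robust moderation 12 h had 65, 48 h 134 and the middle times 243. Leaving out 1 array gave 293 to 1359, 5 to 75, 6 to 414, 6 to 505, 31 to 104, 31 to 340 and 32 to 502. The share of calls that were higher moved too. At 4 h it was 87.4% as reported, 76% with each array centred on its median, 54.9% with array weights (1017 higher, 835 lower) and 100% with no run term. With no run term it went from 81% to 20% at 12 h, from 82.4% to 40% at 15 h and from 82.8% to 50% over the middle times, with 5, 5 and 8 genes called. The cause of these shifts was not tested.

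No paired analysis was possible because the labels give no replicate numbers that groups share. The osteoblast mean without Spp1 and Runx2 was not run apart, since neither is in the mean. Signal over background was not analysed here.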
